A study of Mus musculus with 4 samples.

Results

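The genes described here are the nuclear genes of the mitochondrial respiratory chain and ATP synthase. They were taken by name: every gene of the array annotation whose symbol starts with Nduf, Uqcr, Sdh followed by a to d, Cox4 to Cox8, or Atp5. The rule used no measured value, though it was chosen with earlier results of these data known. It found 91 of the 17097 genes with a symbol of their own. By complex these were 32 genes of complex I, 4 of complex II, 7 of complex III, 19 of complex IV and 17 of complex V. The prefixes also took in 12 genes that are no subunits: 7 Ndufaf and 4 Sdhaf assembly factors and the pseudogene Ndufs5-ps. Ndufa4 and Ndufa4l2 were placed with complex IV, where the Ndufa4 protein is now assigned.

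Cells came from mouse embryonic stem cells grown first as hanging drops and then in suspension, where they form embryoid bodies, aggregates of differentiating cells. There were 2 genotypes, the control labelled F/F and the Snai1 knockout; Snai1 encodes a zinc finger repressor known for its part in epithelial-mesenchymal transition. On day 4 the bodies were dissociated and sorted with an antibody to Flk1, the receptor encoded by Kdr that marks early mesoderm with blood and vessel potential. Each genotype thus gave a Flk1+ and a Flk1- fraction, and each of these 4 groups was measured on 1 Affymetrix array made from 50 ng of total RNA. For the knockout Flk1- sample the description gives day 4 and the source name day 5, so each comparison that uses it may also hold a day of culture. How the knockout was made, and whether it stands for 1 clone, the labels do not say.

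The respiratory chain sits in the inner mitochondrial membrane. Complex I (NADH dehydrogenase) and complex II (succinate dehydrogenase) pass electrons to ubiquinone, complex III passes them on to cytochrome c, and complex IV (cytochrome c oxidase) reduces oxygen. Complexes I, III and IV pump protons, and complex V, the ATP synthase, uses the gradient to make ATP. Several catalytic subunits are encoded by mitochondrial DNA and are not among these genes. Pluripotent and early differentiating cells rely strongly on glycolysis, and respiration is known to gain weight as heart and other tissues mature.

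All values are the deposited log2 expression values, on which a difference of 1 is a 2-fold difference. With 1 array per group there is no replicate spread and no test, and no difference below has a replicate check. Values at or below 3.19 were taken as not above background; 40% of all gene values on the arrays lie there. A gene entered a comparison when it exceeded that floor on at least 1 of the arrays compared, and 1.5-fold (0.58 on the log2 scale) was the size at which genes were counted. Of the 91 genes 89 exceeded the floor on at least 1 array. The exceptions were Cox7b2, with 1.55 and 1.74 in the Flk1+ and Flk1- fractions of the control and 1.64 and 1.62 in those of the knockout, and Ndufaf1, whose highest value was 3.18. Where 4 values are given below they stand in that order.

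The sort was visible in Kdr, at 8.92, 4.55, 9.03 and 3.88. Snai1 was at 2.56, 2.42, 1.88 and 1.94, below the floor on all 4 arrays, so it checks neither genotype label. Marker genes of other cells differed between the arrays. The log2 of the summed level of 6 pluripotency genes was 6.29, 9.30, 7.93 and 10.1, with Nanog at 3.38, 6.57, 5.41 and 7.57. That of 6 primitive erythroid genes was 6.92, 11.2, 5.05 and 5.18, and that of 6 cardiac genes was 8.48, 9.10, 7.25 and 6.64. The sum of 4 epithelial genes was 8.53, 9.98, 10.1 and 10.5, with Cdh1, encoding E-cadherin, at 6.05, 7.76, 7.84 and 8.63, and that of 5 endoderm genes was 7.95, 8.96, 8.52 and 9.08. The endoderm genes went both ways, with Cer1 at 5.32, 7.45, 7.50 and 8.15 and Ttr at 6.89, 7.36, 4.79 and 4.68. Above the floor in knockout Flk1+ cells were 4 of the 6 pluripotency, 1 of the 6 erythroid and 4 of the 6 cardiac genes; in control Flk1+ cells the numbers were 3, 4 and 5. For Gapdh, the 3' minus the 5' control probe set, a reading of RNA and cDNA length, was 2.05, 1.76, 1.47 and 1.99. The same reading for beta-actin was -0.06, -0.14, -0.32 and -0.03, so knockout Flk1+ cells had the lowest value of both. The part of cell makeup and of RNA length in the differences below was not tested, and in sorted bulk samples fewer cells of a type and less RNA per cell cannot be told apart.

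Between the genotypes the respiratory genes stayed close together. In Flk1+ cells the median of knockout minus control was -0.06 over the 89 genes, with an interquartile range of -0.15 to 0.09, and the median of all genes was -0.05. In this comparison 52 genes were lower and 37 higher in the knockout; of all genes 57.4% were lower. At 1.5-fold stood 1 of the 89, Uqcrq, against 7.68% of all genes and 4.61% of the 2041 genes with a mean level in the same range. These genes of like level had a median of -0.08 in Flk1+ and of 0.04 in Flk1- cells. In Flk1- cells the median was 0.07, with an interquartile range of -0.02 to 0.15, and that of all genes was 0.04. There 62 genes were higher and 27 lower, against 56.8% of all genes higher, and the single gene 1.5-fold apart was Cox7a1 (5.51% of all genes, 3.09% of those of like level).

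The sign of the Flk1+ median rested on the normalization. It was -0.06 as deposited, and 0.00 after a second quantile normalization, after cyclic loess between arrays and after centring each array on its median. After centring, 45 genes were higher and 44 lower in knockout Flk1+ cells. In Flk1- cells the median stayed above 0 at 0.02 to 0.08 under 9 alternatives. Centring lowered the number of genes higher in knockout Flk1- cells from 62 to 49, with 53.6% of all genes then lower.

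**Figure D1:**
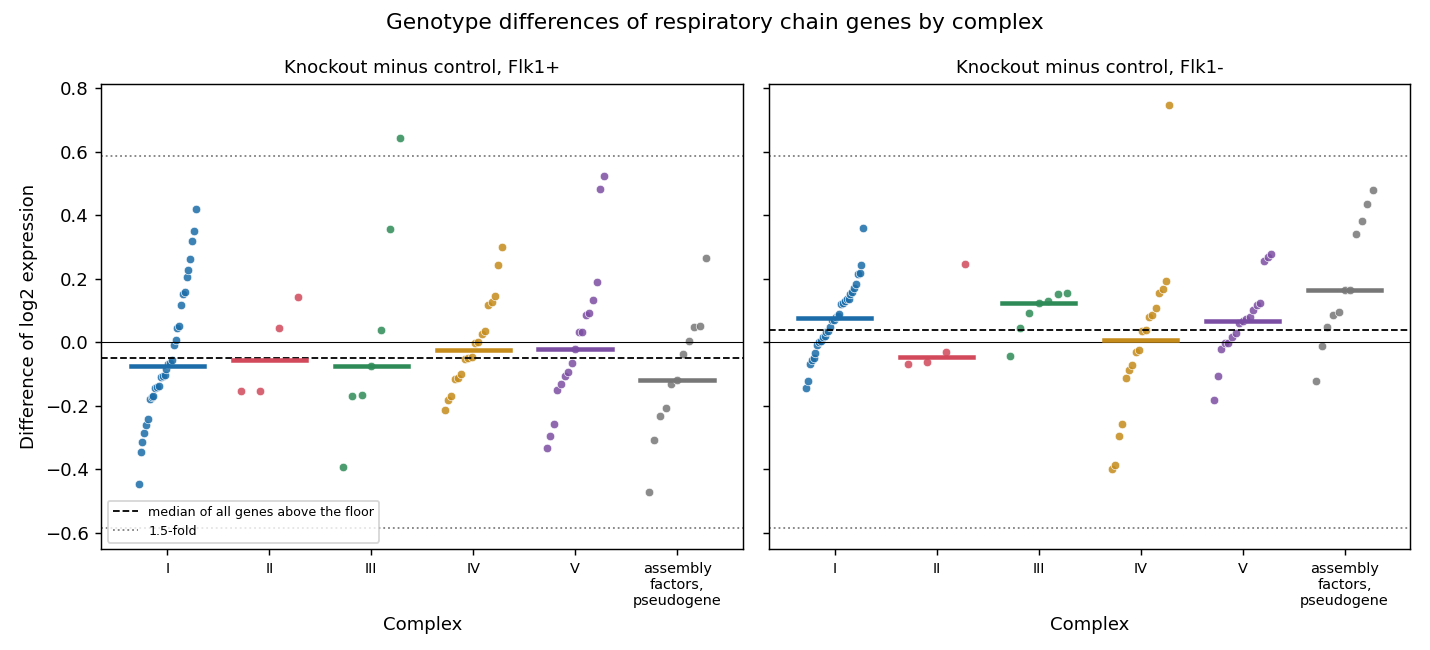
Knockout minus control difference of log2 expression for each respiratory chain gene above the floor, in Flk1+ cells (left) and Flk1- cells (right), by complex. Each point is a gene on 1 array per group, coloured bars are medians of a complex, the dashed line is the median of all genes and dotted lines mark 1.5-fold. Most points lie inside 1.5-fold; Uqcrq at 0.64 (left) and Cox7a1 at 0.75 (right) lie outside.

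Complex by complex, the medians of knockout minus control in Flk1+ cells were -0.08 for complex I, -0.05 for II, -0.08 for III, -0.02 for IV and -0.02 for V. In Flk1- cells they were 0.08, -0.05, 0.12, 0.01 and 0.07 in the same order. No complex median lay more than 0.10 from the median of all genes in either comparison. The sign of the Flk1+ median was kept under all 9 alternatives for complex I (-0.08 to -0.01), and not for complexes II, III, IV and V. In Flk1- cells complexes I, III and V kept a median above 0 under all 9. Groups of genes by role inside each complex, also chosen with earlier results known, are described next, with no test of the difference between groups.

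Complex I has core subunits, which carry the flavin and the iron-sulfur clusters, and accessory subunits, which surround them. All 6 core genes measured were lower in knockout than in control Flk1+ cells, with a median of -0.23. Of the 26 accessory genes 14 were lower and 12 higher, with a median of -0.03. The accessory share lower, 53.8%, was near the 57.4% of all genes. In Flk1- cells the groups were alike in count, with 5 of 6 core genes (median 0.10) and 20 of 26 accessory genes (median 0.08) higher in the knockout. Of all genes 56.8% were higher there. Ndufv1, which binds NADH, was at 7.13, 7.37, 6.68 and 7.37. Its level in knockout Flk1+ cells stood apart, 1.36-fold below the control Flk1+ value, while the other 3 arrays spanned 7.13 to 7.37, and its second probe set gave -0.33 for the same comparison. Ndufs1, the largest core subunit, had 5.51, 5.43, 5.20 and 5.65. Ndufs8, which holds 2 of the iron-sulfur clusters, had 6.0, 5.93, 5.86 and 6.29. Both had their lowest level in knockout Flk1+ and their highest in knockout Flk1- cells. Of the 4 probe sets of Ndufs8, all were lower in knockout Flk1+ cells (-0.33 to -0.14), but in Flk1- cells they ran from -0.17 to 0.36, so the Flk1- value rests on the choice of probe set.

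The remaining core genes were lower in knockout Flk1+ cells by less than Ndufv1 and Ndufs1. Ndufs7 had 8.45, 8.37, 8.17 and 8.43, and its probe sets gave -0.28 and -0.04 in the Flk1+ comparison. Ndufv2 had 7.37, 7.50, 7.20 and 7.64 with probe sets at -0.18 and -0.17. Ndufs3 had 6.63, 6.73, 6.52 and 6.60, the only core gene lower in the knockout in both fractions. Under the 4 normalizations the core median in Flk1+ cells ran from -0.23 to -0.15, and that in Flk1- cells from 0.05 to 0.10.

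Accessory genes of complex I went both ways. Ndufa11, a membrane subunit, was at 6.74, 6.90, 7.16 and 7.14, the largest gene difference of complex I above 0 in Flk1+ cells (0.42). Both knockout arrays lay above both control arrays for Ndufa11. Ndufb2 (5.32, 5.72, 5.67 and 5.75) and Ndufc2 (5.98, 6.18, 6.29 and 6.22) stood apart through a low control Flk1+ value. Ndufb3 had 6.78, 6.75, 6.43 and 6.72, with knockout Flk1+ the single low array. Ndufv3, with 8.95, 9.09, 8.86 and 8.95, had the lowest genotype difference of complex I in Flk1- cells at -0.14. The other 21 accessory genes lay between -0.26 and 0.26 in the Flk1+ comparison and between -0.07 and 0.22 in the Flk1- comparison.

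Complex II, the smallest complex and also an enzyme of the citric acid cycle, showed little. Sdha, the flavoprotein, had 8.25, 8.43, 8.09 and 8.37, and Sdhb, the iron-sulfur subunit, 7.08, 7.10, 7.13 and 7.03. A second probe set of Sdha gave -0.36 in the Flk1+ comparison, where the one used gave -0.15. Of the membrane anchors, Sdhc had 5.59, 5.85, 5.73 and 6.10 and Sdhd 8.86, 8.82, 8.71 and 8.79. Sdhc was higher in the knockout in both fractions (0.14 and 0.25), the other 3 genes lay between -0.15 and 0.04 in the Flk1+ and between -0.07 and -0.03 in the Flk1- comparison. The factors that put complex II together were further apart than its subunits. Sdhaf4, which assists flavinated Sdha, was at 4.44, 4.68, 3.97 and 4.84, a genotype difference of -0.47 in Flk1+ and 0.16 in Flk1- cells. Sdhaf3, which helps mature Sdhb, was at 3.50, 3.62, 3.19 and 4.06, at the floor in knockout Flk1+ cells and therefore only bounded there, at least 1.24-fold below the control. Sdhaf1, which also serves Sdhb, had 4.87, 4.80, 4.64 and 4.90, and Sdhaf2, the flavination factor of Sdha, 5.23, 5.27, 5.23 and 5.26. Of these 4 genes, 3 had their lowest level in knockout Flk1+ and their highest in knockout Flk1- cells, and Sdhaf2 was level by the probe set used, while its second probe set gave -0.34 in the Flk1+ comparison.

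Complex III has large subunits, the Rieske protein and small subunits. Uqcrc2, a core protein, had 8.18, 8.05, 7.79 and 8.17, so knockout Flk1+ cells were the single low array, and its probe sets gave -0.39 and -0.34. Uqcrc1, the other core protein, had 6.50, 6.50, 6.33 and 6.62, and Uqcrfs1, the Rieske iron-sulfur protein, 6.54, 6.79, 6.47 and 6.84. All 3 were lower in the knockout in Flk1+ cells (median -0.17) and higher in Flk1- cells (median 0.12), where 57.4% of all genes were lower and 56.8% higher. Cytochrome c1 of complex III, encoded by Cyc1, is outside the name rule. Cyc1 was level in Flk1+ cells, at 7.59 in both genotypes, and higher by 0.26 in knockout Flk1- cells. Among the small subunits, Uqcrq had 4.95, 5.38, 5.60 and 5.53 and Uqcr11 6.39, 6.50, 6.75 and 6.60, both lowest in control Flk1+ cells. The value of Uqcrq comes from a probe set that the maker marks as able to bind several transcripts, and the other probe set above the floor gave -0.08 in the Flk1+ comparison, so its 1.56-fold difference depends on that choice. Uqcr10 had 7.54, 7.80, 7.58 and 7.75, and Uqcrb, a matrix-side subunit, 6.44, 6.75, 6.27 and 6.91. The small subunits went both ways in Flk1+ cells, with Uqcrb at -0.17, as low as the large subunits, Uqcr10 at 0.04 and a median of 0.20, and in Flk1- cells their median was 0.12, that of the large subunits.

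Complex IV held a group with genotype medians near 0. It also held Cox7a1, the gene with the largest genotype difference in Flk1- cells and the largest difference in both sort comparisons. The 11 widely expressed genes had genotype medians of 0.00 in Flk1+ and 0.04 in Flk1- cells. Cox4i1, the common form of subunit 4, was at 7.99, 8.27, 8.12 and 8.38, and Cox5a, its neighbour at the matrix face, at 8.62, 8.92, 8.73 and 9.09. For both genes Flk1- cells were above Flk1+ cells in each genotype, by 0.27 and 0.25 for Cox4i1 and by 0.30 and 0.35 for Cox5a, and the knockout was above the control in each fraction. Cox7c, a small subunit, had 8.33, 8.50, 8.63 and 8.58, the highest genotype difference of the group in Flk1+ cells at 0.30. Cox6b1, the intermembrane-space subunit, ran the other way, with 8.36, 8.28, 8.31 and 8.03 and a genotype difference of -0.26 in Flk1- cells. The other 7, Cox5b, Cox6a1, Cox6c, Cox7a2, Cox7a2l, Cox8a and Ndufa4, lay between -0.11 and 0.16 in both genotype comparisons.

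The tissue isoforms of complex IV replace the common forms in particular organs. Cox7a1, the heart and skeletal muscle form of subunit 7a, was at 3.98, 4.77, 4.22 and 5.52. Flk1- cells were above Flk1+ cells in both genotypes, and the knockout was above the control in both fractions, by 0.24 in Flk1+ and by 0.75 in Flk1- cells (1.68-fold). The order of the arrays for Cox7a1 was that of the summed pluripotency genes, 6.29, 9.30, 7.93 and 10.1. The summed endoderm genes (7.95, 8.96, 8.52 and 9.08) and Cox4i1 (7.99, 8.27, 8.12 and 8.38) had the same order. That order is thus not particular to pluripotency genes. Nor did every endoderm gene follow it: Cer1, Sox17 and Foxa2 were highest in knockout Flk1- cells, but Ttr was lowest there. Afp exceeded the floor in control Flk1+ cells alone. The summed cardiac genes were lowest, at 6.64, on the array where Cox7a1 was highest. The common form Cox7a2, with 9.67, 9.79, 9.69 and 9.83, differed by at most 0.14 between any 2 arrays compared. The other muscle isoforms gave no such pattern: Cox6a2 had 3.84, 3.82, 3.87 and 3.79, and Cox8b 4.04, 3.94, 4.00 and 4.14. Cox4i2, the lung form whose gene responds to oxygen, had 3.69, 3.84, 3.51 and 3.44. Ndufa4l2, a paralog of Ndufa4 induced in low oxygen, had 4.05, 4.03, 3.88 and 3.65. Both were lower in the knockout in both fractions, by 0.18 and 0.40 for Cox4i2 and by 0.17 and 0.39 for Ndufa4l2, at levels close to the floor. Of the testis forms, Cox6b2 had 4.96, 5.48, 4.91 and 5.37, lower in Flk1+ cells of both genotypes, and Cox8c had 4.23, 4.18, 4.02 and 3.88.

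**Figure D2:**
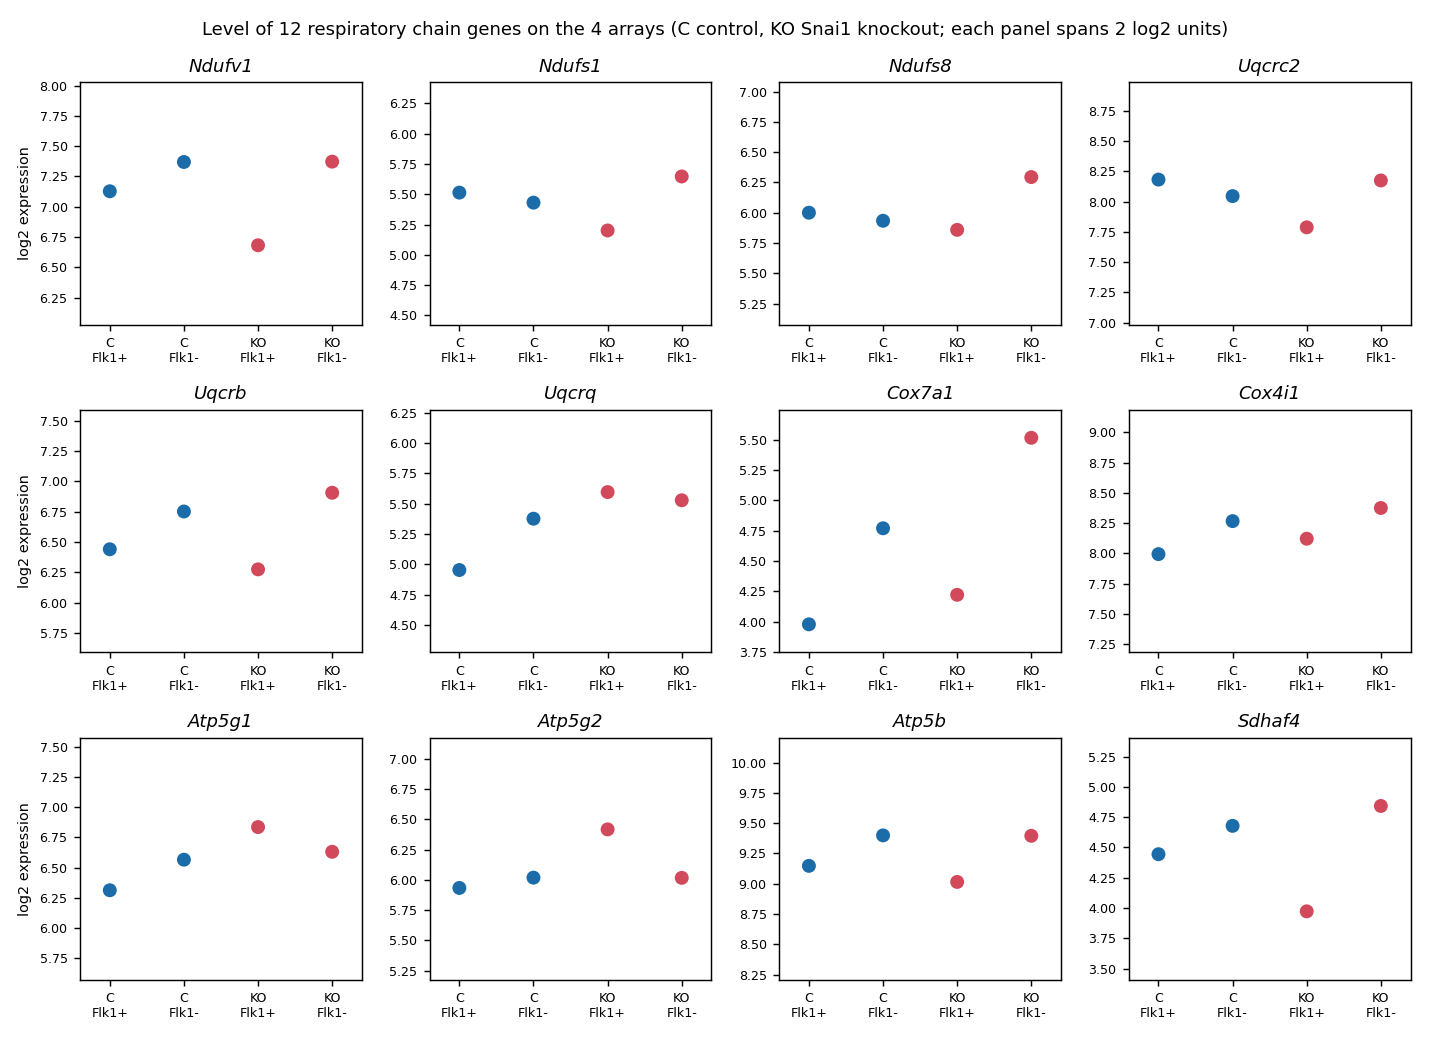
Level of 12 respiratory chain genes on the 4 arrays, in log2 expression, with control in blue and Snai1 knockout in red; every panel spans 2 log2 units and each point is 1 array. Ndufv1, Uqcrc2 and Sdhaf4 are lowest in knockout Flk1+ cells, Atp5g1 and Atp5g2 are highest there, and Cox7a1 is highest in knockout Flk1- cells at 5.52.

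The ATP synthase has a catalytic head, a proton-carrying ring, and a stalk and membrane part. Of the 5 genes of the F1 head, Atp5a1 (alpha subunit) had 8.60, 8.70, 8.27 and 8.82, Atp5b (beta, with the catalytic sites) 9.15, 9.40, 9.01 and 9.40, and Atp5c1 (gamma, the rotating axle) 9.06, 9.04, 8.80 and 9.15. These 3 had their lowest level in knockout Flk1+ cells, with differences of -0.33, -0.13 and -0.26 from the control. The second probe set of Atp5c1 gave -0.09 in Flk1+ and -0.27 in Flk1- cells, where the first gave 0.10. Atp5d (delta, 8.54, 8.60, 8.58 and 8.66) and Atp5e (epsilon, 7.32, 7.44, 7.51 and 7.72) were higher in the knockout in both fractions by the probe sets used. The second probe set of Atp5d gave 0.40 in Flk1+ and -0.03 in Flk1- cells.

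The c-ring subunit is made from 3 genes that encode the same mature protein behind different import peptides. Atp5g1 had 6.31, 6.57, 6.84 and 6.63 and Atp5g2 5.93, 6.02, 6.42 and 6.02, both highest in knockout Flk1+ cells, by 0.52 (1.44-fold) and 0.48 (1.40-fold) over the control. Atp5g3 had 9.17, 9.28, 9.07 and 9.17, and it was lower in the knockout by 0.11 in both fractions. For Atp5g1 the mean over its probe sets, of which only 1 exceeds the floor, gave 0.13, whereas Atp5g2 has a single probe set and held 0.48 to 0.57 under every alternative. The 9 genes of the stalk and membrane part had a median of -0.02 in Flk1+ and 0.07 in Flk1- cells. Among them Atp5pb, subunit b of the outer stalk, had 7.81, 7.68, 7.52 and 7.94. It was lowest in knockout Flk1+ and highest in knockout Flk1- cells. Atp5mpl, a small membrane subunit, ran the other way with 7.75, 7.99, 7.88 and 7.81. The other 7, Atp5h, Atp5j, Atp5j2, Atp5k, Atp5l, Atp5md and Atp5o, lay between -0.15 and 0.09 in Flk1+ and between -0.02 and 0.27 in Flk1- cells, where Atp5l (6.15, 6.38, 6.25 and 6.65) was the highest.

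Complex I assembly factors, which build the complex and are not part of it, were mostly higher in knockout Flk1- cells. Of 6 above the floor, 5 were higher there, with a median of 0.25, and 3 were higher in knockout Flk1+ cells, with a median of 0.00. The shares of all genes higher were 56.8% in Flk1- and 42.5% in Flk1+ cells. Ndufaf2, which binds a late intermediate, had 6.95, 6.64, 6.91 and 7.02, and Ndufaf3, an early factor, 3.55, 3.54, 3.82 and 3.88. Ndufaf8 had 6.47, 6.60, 6.51 and 7.08, but its second probe set gave -0.31 in the Flk1- comparison where the first gave 0.48. Ndufaf6 (4.66, 5.19, 4.71 and 5.35) and Ndufaf5 (4.35, 4.77, 4.22 and 4.64) differed more with the sort than with the genotype, which gave 0.05 and 0.17 for Ndufaf6 and -0.13 and -0.12 for Ndufaf5. Ndufaf4 had 6.33, 6.40, 6.21 and 6.49, and the pseudogene Ndufs5-ps 7.05, 6.98, 6.84 and 7.03. The probe set used for Ndufs5-ps is marked as able to bind several transcripts. Whether its values are those of the pseudogene or of Ndufs5 cannot be told apart here.

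**Figure D3:**
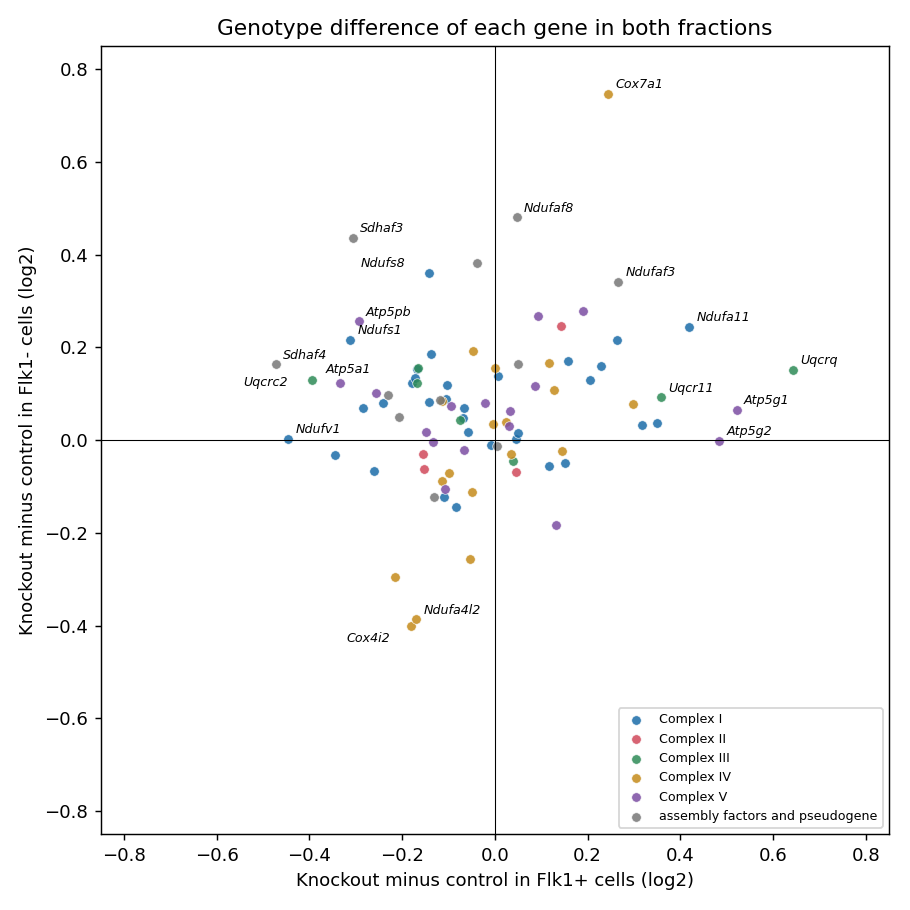
Knockout minus control difference of log2 expression in Flk1+ cells (horizontal) against that in Flk1- cells (vertical) for the 89 genes above the floor, coloured by complex; the 2 comparisons share no array and each point is 1 gene. The upper left part, lower in Flk1+ and higher in Flk1- knockout cells, holds 34 genes, and Cox7a1, Uqcrq, Atp5g1 and Atp5g2 lie to the upper side or the right.

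Set side by side, 34 of the 89 genes were lower in knockout Flk1+ and higher in knockout Flk1- cells, a pattern held by 30.3% of all genes. A further 28 were higher in both (25.8% of all genes), 18 lower in both (26.6%) and 9 higher in Flk1+ and lower in Flk1- cells (17.1%). The genotype difference in Flk1+ minus that in Flk1- cells had a median of -0.09, against -0.07 for all genes, and it was below 0 for 58 of the 89 (58.7% of all genes). At 1.5-fold in that difference stood 2 genes, Sdhaf4 at -0.64 and Sdhaf3 at -0.74 or lower, a bound because its knockout Flk1+ value is at the floor, against 10.9% of all genes and 6.52% of those of like level. Among role groups it was -0.40 for the complex I core, -0.04 for complex I accessory genes, -0.29 for the large subunits and Rieske protein of complex III, -0.48 for complex II assembly factors and 0.46 for the c-ring. The c-ring value is that of Atp5g1, with Atp5g3 at -0.001, and it was 0.09 with the mean of probe sets. Knockout Flk1+ cells held the lowest of the 4 values for 43 of 89 genes (34.4% of all genes) and knockout Flk1- cells the highest for 46 (36.9%). After centring these counts were 27 (22% of all genes) and 26 (24.6%).

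The role groups were compared under the 4 normalizations. In Flk1+ cells the core of complex I, the large subunits of complex III, the F1 head and complex II assembly factors kept a median below 0, and the c-ring and small subunits of complex III kept one above 0. The accessory genes of complex I and the stalk genes of complex V changed sign. The c-ring median over 3 genes is, as deposited, the value of Atp5g2, while Atp5g3, the highest of them in level, was at -0.11. With the mean of probe sets the c-ring median in Flk1+ cells was 0.13. The small subunits of complex III lost their sign (-0.02) when probe sets marked as binding several transcripts were left out.

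**Figure D4:**
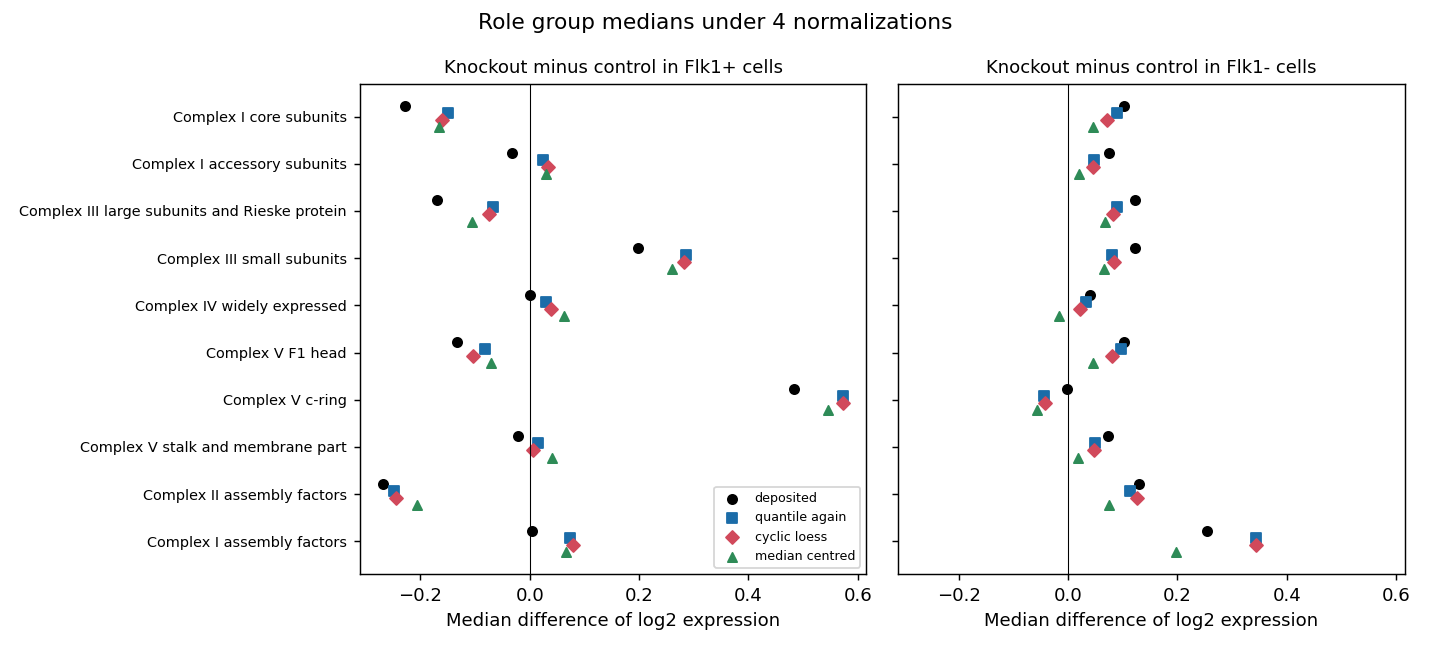
Median knockout minus control difference of log2 expression of 10 role groups in Flk1+ cells (left) and Flk1- cells (right) under the deposited values, a second quantile normalization, cyclic loess and median centring. Each symbol is a median over the genes of a group on 1 array per group. The complex I core stays between -0.23 and -0.15 on the left, and the c-ring between 0.48 and 0.57 (0.13 with the mean of probe sets, not drawn). The c-ring median stands for 3 genes, and Atp5g3, the highest of them in level, was at -0.11 as deposited.

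The 2 sort comparisons share arrays with the genotype comparisons and are no separate evidence. In control cells the median of Flk1+ minus Flk1- was -0.09 (interquartile range -0.21 to 0.03), against -0.01 for all genes. Of the 89 genes, 58 were lower and 31 higher in Flk1+ cells, where 51.7% of all genes were lower. At 1.5-fold stood 1 gene, Cox7a1 at -0.79 (1.73-fold lower), against 8.25% of all genes and 5.59% of those of like level. By complex the medians were -0.08 for I, -0.10 for II, -0.25 for III, -0.07 for IV and -0.08 for V. Complex III was the lowest, through Uqcrq (-0.42), Uqcrb (-0.31), Uqcr10 (-0.26) and Uqcrfs1 (-0.25), while Uqcrc2 was at 0.14. That order rests on probe sets: without those marked as binding several transcripts, Uqcrq was at 0.11, complex III at -0.11 and complex II at -0.26, and with the mean of probe sets Uqcrq was at 0.06 and complex III at -0.11. Cox6b2 (-0.52), Ndufaf6 (-0.52) and Ndufaf5 (-0.42) were also lower in Flk1+ cells, and the highest was Ndufaf2 at 0.31.

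In knockout cells the gap between fractions was wider, with a median of -0.16 (interquartile range -0.35 to -0.03) against -0.08 for all genes. Here 69 genes were lower and 20 higher in Flk1+ cells, and 58.6% of all genes were lower. Below by 1.5-fold were 6 genes, with 10.6% of all genes 1.5-fold lower and 15% apart in either direction (13.5% of genes of like level). They were Cox7a1 (-1.30, 2.46-fold lower), Sdhaf4 (-0.87), Sdhaf3 (at least 1.82-fold lower), Ndufv1 (-0.69), Ndufaf6 (-0.64) and Uqcrb (-0.63). None was 1.5-fold higher, and the highest was Atp5g2 at 0.40. All 6 core genes of complex I were lower (median -0.44), as were all 5 of the F1 head (median -0.34), all 3 large subunits of complex III (median -0.37) and all 11 assembly factors and pseudogene genes above the floor (median -0.28).

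**Figure D5:**
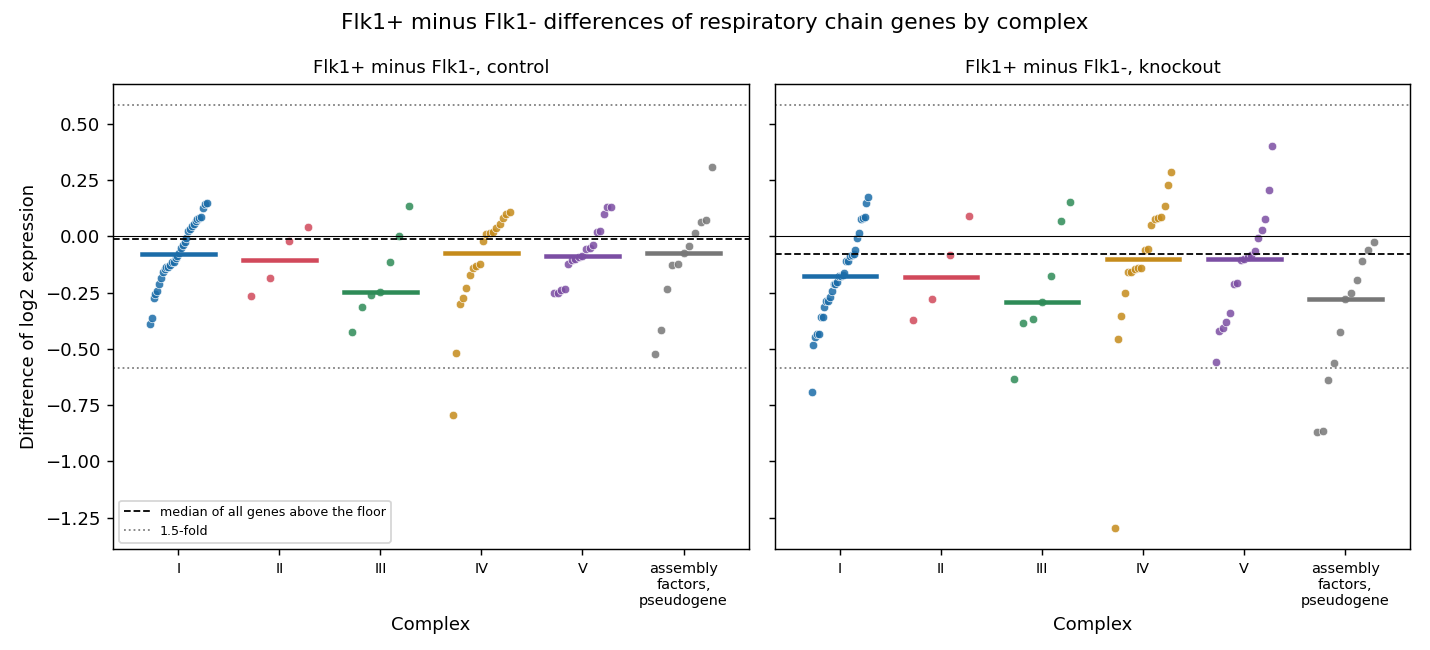
Flk1+ minus Flk1- difference of log2 expression for each respiratory chain gene above the floor, in control cells (left) and knockout cells (right), by complex; bars are medians of a complex, the dashed line is the median of all genes and dotted lines mark 1.5-fold. Every complex median lies below 0 in both panels, and Cox7a1 is the lowest point, at -0.79 and -1.30.

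This comparison shifted most with the scaling. Centring moved the median of all genes from -0.08 to 0.09, a shift of more than 0.1, and that of the respiratory genes from -0.16 to -0.01, with 47 lower and 42 higher. The share of all genes 1.5-fold lower was then 5.76% and that 1.5-fold higher 7.55%, against 10.6% and 4.35% as deposited. Relative to all genes the respiratory genes lay lower under each normalization: their median minus that of all genes was -0.08 as deposited, -0.07 after quantile normalization, -0.06 after loess and -0.10 after centring. In control cells that distance was -0.07 as deposited and -0.06 to -0.08 under the 3 other normalizations. Beside genes of like mean level, as deposited, the distance was smaller in control cells and nearly absent in knockout cells. In control cells the median was -0.09 for the respiratory genes and -0.04 for genes of like level. In knockout cells it was -0.16 and -0.15.

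Many of these genes are known targets of nuclear respiratory factors, so their promoters were searched for the NRF1 consensus palindrome (the capitals in the Ndufa11, Atp5g2 and Cox6a1 sequences), the ETS site CCGGAAGT (bound by GABP) and the ERR site TCAAGGTCA. The windows ran from 250 bases before to 50 after the start of each gene in the RefSeq promoter table on GRCm38.p6, both strands were read, and 79 windows of 74 of the 91 genes were found there. The NRF1 palindrome was in 7 windows (8.86%), against 0.971% of all 32851 windows and 1.52% of the 16953 windows of genes on the array. The ETS site was in 4 (5.06%), between the 3.89% of all windows and the 5.88% of those of genes on the array. The ERR site was in 2 (2.53%, against 0.423% and 0.319%). Neither background was limited to genes above the floor, which 89 of the 91 genes but 10955 of all 17097 exceeded. The part of this in the gaps was not tested. The 7 genes with the palindrome were Atp5g2, Atp5k, Cox6a1, Ndufa11, Ndufaf4, Ndufaf5 and Uqcrc1. In Flk1+ cells 4 of them were higher in the knockout and 3 lower, from -0.17 for Uqcrc1 to 0.48 for Atp5g2. Nrf1 itself was at 6.67, 6.65, 6.66 and 6.37, and Gabpa at 6.13, 6.47, 6.22 and 6.56.

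The 250 bases upstream of the start are shown for 3 genes with the palindrome, which is in capitals, and for Ndufv1 and Atp5g1, which hold none of the 3 motifs. In Flk1+ cells Ndufv1 had the lowest genotype difference of complex I and Atp5g1 the highest of complex V. Each is written 5′ to 3′ on the strand of the gene, from RefSeq on GRCm38.p6. The windows are Ndufa11 at chr17:56717512-56717761 (plus strand), Atp5g2 at chr15:102671048-102671297 (minus), Cox6a1 at chr5:115348959-115349208 (minus), Ndufv1 at chr19:4012756-4013005 (minus) and Atp5g1 at chr11:96075632-96075881 (minus).
Ndufa11: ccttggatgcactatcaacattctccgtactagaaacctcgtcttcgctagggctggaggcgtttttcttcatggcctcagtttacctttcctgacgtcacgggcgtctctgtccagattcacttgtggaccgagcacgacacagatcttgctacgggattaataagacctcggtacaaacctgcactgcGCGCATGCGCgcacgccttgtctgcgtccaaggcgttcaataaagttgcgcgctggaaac
Atp5g2: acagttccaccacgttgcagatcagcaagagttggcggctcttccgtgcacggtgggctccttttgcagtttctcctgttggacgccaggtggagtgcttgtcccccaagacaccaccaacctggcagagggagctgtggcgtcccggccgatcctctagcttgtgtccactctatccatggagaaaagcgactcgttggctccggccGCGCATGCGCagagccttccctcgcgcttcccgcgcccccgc
Cox6a1: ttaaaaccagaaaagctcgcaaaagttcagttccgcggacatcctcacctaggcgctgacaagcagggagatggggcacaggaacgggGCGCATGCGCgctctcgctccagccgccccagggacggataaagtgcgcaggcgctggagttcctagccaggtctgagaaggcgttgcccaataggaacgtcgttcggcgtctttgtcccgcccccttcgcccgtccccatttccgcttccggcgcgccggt
Ndufv1: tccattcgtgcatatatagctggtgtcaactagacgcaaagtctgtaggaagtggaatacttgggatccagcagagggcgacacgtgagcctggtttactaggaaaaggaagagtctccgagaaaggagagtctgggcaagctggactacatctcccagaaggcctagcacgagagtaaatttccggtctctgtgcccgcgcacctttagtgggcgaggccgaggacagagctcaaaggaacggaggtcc
Atp5g1: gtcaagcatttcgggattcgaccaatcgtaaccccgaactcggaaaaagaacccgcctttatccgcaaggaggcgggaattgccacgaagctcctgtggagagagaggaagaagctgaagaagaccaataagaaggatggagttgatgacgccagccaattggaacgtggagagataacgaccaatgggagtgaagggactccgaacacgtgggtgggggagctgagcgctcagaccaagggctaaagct
Counted from the start of the gene, the palindrome begins at -60 in Ndufa11, at -42 in Atp5g2 and at -162 in Cox6a1. Of these, Ndufa11 was higher in both knockout arrays, Atp5g2 in knockout Flk1+ cells alone, and Cox6a1 differed by 0.14 and -0.02. A match describes the letters and shows no binding.

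Other genes of the pathway were taken from lists. Their counts and medians stand beside those of all genes, of which 57.4% were lower in knockout Flk1+ cells (median -0.05) and 56.8% higher in knockout Flk1- cells (median 0.04). Mitochondrial DNA maintenance and transcription genes, which serve the subunits encoded in the organelle, had medians further from 0 than the nuclear subunits. Of 13 above the floor, 10 were lower in knockout Flk1+ cells (median -0.24) and 11 higher in knockout Flk1- cells (median 0.17), and the difference of the 2 was below 0 for 12 of 13 (median -0.48, against -0.07 for all genes). Polrmt, the mitochondrial RNA polymerase, was at 4.76, 4.81, 4.03 and 5.12, with knockout Flk1+ cells low and knockout Flk1- cells high. Tfam, which packages mitochondrial DNA and starts its transcription, had 6.13, 6.27, 5.62 and 6.42 in the same order of arrays.

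The citric acid cycle and pyruvate dehydrogenase genes ran in the same directions as the complex I core. In knockout Flk1+ cells 13 of 15 were lower (median -0.14), and in knockout Flk1- cells 11 of 15 higher (median 0.12). Fh1, fumarase, had 7.55, 7.52, 7.01 and 7.68, and Idh2, which makes mitochondrial NADPH, stood against the rest with 7.33, 7.46, 7.87 and 7.60. The adenine nucleotide and phosphate carriers and porins gave 6 of 7 lower in knockout Flk1+ cells (median -0.15) and 6 of 7 higher in Flk1- cells, with a median of 0.05 near that of all genes. The Flk1- median is the value of Ckmt1 (3.19, 3.17, 3.25 and 3.22). In Flk1- cells Ckmt1 exceeded the floor on the knockout array alone, so its sign there was set by the floor rule. Electron carriers and dehydrogenases that feed ubiquinone had a median of -0.01 over 6 genes in Flk1+ and of 0.26 over 7 in Flk1- cells. All 7 were higher in knockout Flk1- cells, among them Cyc1, cytochrome c1 of complex III, at 7.59, 7.74, 7.59 and 8.0. Sqor (3.08, 2.98, 3.18 and 3.24) exceeded the floor on the knockout Flk1- array alone, so its sign there was set by the floor rule. Its own difference, 0.26, is the median.

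Mitochondrial ribosomal protein genes, 72 above the floor, were lower for 44 in knockout Flk1+ cells, with a median of -0.05 that equals that of all genes, and higher for 59 in knockout Flk1- cells (median 0.13). The Flk1+ median was above 0 after each of the 3 other normalizations. Mrpl10 was 1.5-fold higher in knockout Flk1+ cells, with 5.34, 5.82, 5.96 and 5.76. Cytosolic ribosomal protein genes, 70 above the floor, had medians of 0.03 and 0.02. Ubiquinone synthesis genes had medians of -0.03 and 0.19 over 9 genes, and Pdss2, which makes the ubiquinone tail, was at 5.17, 4.90, 5.09 and 5.50. Assembly factors outside the name rule, 29 above the floor, had medians of -0.08 and 0.08. Of these Cox18, an inserter of complex IV, had 4.27, 4.29, 4.12 and 4.93, and Bcs1l, which places the Rieske protein, 4.18, 4.43, 3.57 and 4.04.

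Glycolysis genes, the other main source of ATP, had genotype medians of -0.04 and 0.01 over 17 genes and sort medians of -0.17 in control and -0.21 in knockout cells. Nuclear regulators of respiratory genes, 7 above the floor, had medians of -0.12 and 0.00. Among them Myc, which drives growth and mitochondrial genes, was at 7.86, 6.76, 7.09 and 5.99, lower in the knockout by 0.77 in both fractions and higher in Flk1+ cells by 1.10 in both genotypes. No other listed regulator was 1.5-fold apart in a genotype comparison. The Flk1+ medians of the electron carriers, ubiquinone synthesis and glycolysis, and the Flk1- medians of the carriers and porins, cytosolic ribosome, glycolysis and nuclear regulators, changed sign under at least 1 alternative. Counts and medians over these lists are descriptions of 4 arrays, with no test.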

How the data were processed

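The values were log2 expression values that the authors deposited for 45141 probe sets on 4 arrays, with RMA and limma named per the submitters' processing notes; their versions, settings and array build are not given in the sources used here. They were used as deposited. The 104 control probe sets were left out; 28898 probe sets had 1 gene, 551 several and 15588 none in the annotation used here. Of 17097 genes 16936 matched RefSeq, as did all 91 members, and 0 symbols changed; symbols are those of the annotation (Atp5g1 is now Atp5mc1). Each gene took its probe set with the highest mean (153 probe sets, 42 members with several). Cox7b, Ndufa13, Ndufaf7, Ndufb1, Ndufb4b, Ndufb4c, Ndufb6, Ndufs5 and Uqcrh are not analysed here, having no single-gene probe set.

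Differences were computed in Python 3.11.15 with pandas 2.3.3; loess (span 0.3, 3 rounds) in limma 3.58.1 under R 4.3.3. The scripts were checked on simulated data. Arrays carry no count depth; their number limits the precision, and no test was run with 1 array per group. Members, lists and role groups were chosen with earlier results of these data known. Named by rule were members 1.5-fold apart in any comparison, the extremes of each complex by genotype, isoforms, and the 3 leading differences of differences each way; in lists, those 1.5-fold apart by genotype, at most 4. The other genes were named after their values were seen. Alternatives were 3 normalizations, the mean of probe sets, leaving out _s_at and _x_at probe sets, 3 treatments of the floor, a 2-fold rule, other groupings and a background of genes of like level, the last added after seeing the data.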

Additional observations from a re-analysis of the deposited data

Results flagged for a closer look

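Opposite signs of the genotype difference in the 2 fractions were common, in 34 genes one way and 9 the other, and the difference between fractions was not tested. Listed here are the complexes whose medians lay at least 0.05 from 0 on both sides and the genes at least 0.25 from 0 on both sides. Knockout minus control was -0.08 in Flk1+ and 0.08 in Flk1- cells for the median of complex I, and -0.08 and 0.12 for that of complex III. For the assembly factors and pseudogene the medians were -0.12 and 0.16. Atp5pb, subunit b of the ATP synthase stalk, was at -0.29 and 0.26, and Sdhaf3, an assembly factor of complex II, at -0.31 and 0.44, where -0.31 is an upper bound because the knockout Flk1+ value is at the floor. All genes showed medians of -0.05 and 0.04 in the same comparisons, and the sign of the complex III median in Flk1+ cells was lost under 2 of 9 alternatives.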

How the results depend on the processing

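No paired analysis was possible because each group has 1 array, and no array could be left out for the same reason. Of the 400 recomputed main values (medians and counts over all members and by complex), 387 moved by no more than the spread between probe sets of a gene (0.18) or by no more than 1.5 times, and 13 moved further. That limit is wider than most of these medians, so a median could lose its sign and still count among the 387. The genotype median over all members in Flk1+ cells, -0.06 as deposited and 0.00 after loess, did so. The complex II median of Flk1+ minus Flk1- in knockout cells was -0.37 without probe sets ending in _s_at or _x_at. The number of members 1.5-fold apart by genotype in Flk1+ cells was 1 as deposited, 2 after quantile normalization and after loess, and 0 with the mean of probe sets, without the _s_at and _x_at sets and under the 2-fold rule. Under the 2-fold rule it was 0 by genotype in Flk1- cells, 0 by sort in control cells, 1 by sort in knockout cells and 0 for the difference of differences. Centring left 3 by sort in knockout cells, where 6 stood as deposited. The difference of differences gave 2 as deposited, 5 after quantile normalization and 6 after loess. Among single genes Uqcrq turned, from 0.64 to -0.082, by genotype in Flk1+ cells without the _s_at and _x_at sets; why these values moved was not tested, beyond the other probe sets used. Of the remaining values of genes, roles and lists, 2408 stayed within the same limit and 17 moved further. Of 38 members with a second probe set above the floor, 32 kept their sign across probe sets by genotype in Flk1+ cells and 27 in Flk1- cells, with median gaps of 0.10 and 0.08, so differences of that size are within the spread of the measurement. Levels near 3.19 are close to background and understate folds.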
